A study of Mus musculus with 30 samples.

Results

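The step from embryonic stem cells (ESC) to Flk1+ cells was followed in cells that lack the transcription factor Sp3. It is carried by 4 of the 30 RNA-seq samples of the series, namely 2 Flk1+ and 2 ESC samples of the Sp3 knockout (Sp3-/-, labelled Sp3KO), and by all genes measured in them. Members are given by the population and genotype in the sample labels. All samples derive from the mouse ESC line E14. The 4 WT samples of the same 2 populations, and the 4 samples of cells whose *Sp1* gene lacks the part encoding the DNA-binding domain (Sp1 ΔDBD/ΔDBD, labelled Sp1_deltaDBD), served as comparisons. ESC grew on mouse embryonic fibroblast feeders and then without feeders before differentiation. Flk1+ cells were purified from embryoid bodies on magnetic columns with an antibody against Flk1. The Sp3-/- genotype is 1 ESC line, so the knockout and the history of that line cannot be told apart. Embryoid bodies were kept for times that depended on the cell line. The paper stained WT and Sp3-/- cells for Flk1 on the same day of embryoid body culture, but gives no time for each RNA-seq sample. Genotype and time in culture therefore cannot be told apart either. The labels speak of libraries made in duplicate and the methods of biological replicates. Where replicates came from the same culture, p-values would measure only the spread between samples.

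ESC are held in the pluripotent state by a network of transcription factors around Oct4, Nanog and Sox2. When embryoid bodies form, this network is dismantled, cells pass through a state like the primitive streak under Nodal and Wnt signals, and mesoderm emerges that carries Flk1, the receptor for vascular endothelial growth factor encoded by *Kdr*. Flk1+ mesoderm contains the haemangioblast, the common precursor of endothelium and blood. Sp1 and Sp3 are ubiquitous zinc finger factors that bind the same GC-rich motif, the GC box.

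Expression was given as FPKM, a level scaled to the length of the transcript and the mapped fragments of the sample. The authors quantile normalised the values, so each sample had a median of 7.19 FPKM, and the read depth behind a value is unknown. The table lists 14685 genes, and the 14525 that exceeded 1 FPKM in any sample were tested. A step is the mean of log2(FPKM + 0.1) in Flk1+ cells minus that in ESC, given as a log2 difference with its standard error (SE). It understates the change of genes near 0, and no fold change is given for a gene listed at 0 in both samples of a population. A gene is called when its adjusted p from limma was below 0.05. Since 2 samples stood against 2, an exact permutation test for a single gene could not give a p below 0.333.

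The *Sp3* transcript itself stood at 4.47 and 5.08 FPKM in Sp3-/- ESC and at 7.11 and 7.79 FPKM in Sp3-/- Flk1+ cells, with no overlap. The 4 WT samples lay between 38.7 and 42.7 FPKM, above all knockout samples. The residual *Sp3* signal of the knockout rose in the step by 0.63 (SE 0.19, adjusted p = 0.0082, or 0.0734 without the first ESC and 0.0628 without the second Flk1+ sample), where the WT step was -0.06. *Sp1*, which encodes the close relative, went from 42.6 and 42.9 to 32.7 and 35.7 FPKM, a difference of -0.32 that was not called (adjusted p = 0.12). Markers of the labelled populations separated them in all 4 samples. *Pou5f1*, *Nanog*, *Zfp42*, *Sox2* and *Esrrb* were all called lower in Flk1+ cells, and *Kdr*, *Mesp1*, *T*, *Etv2* and *Pdgfra* were all called higher.

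The step moved about as many genes up as down. In Sp3-/- cells, 3781 genes were higher in Flk1+ cells (26% of those tested) and 3314 were lower (22.8%). Asking in addition for more than a 2-fold change, and for over 3 FPKM on average in the population with the higher level, left 1477 genes higher (10.2%) and 1377 lower (9.48%). In all 2854 of these the 2 samples of each population did not overlap, beside 83.3% of all genes tested. The median log2 difference over all genes tested was 0.03 in Sp3-/- and 0.03 in WT cells. The samples are bulk populations, in which fewer cells of a type and less RNA per cell cannot be told apart.

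The 12 largest rises included genes of the streak, mesoderm and haemangioblast lists. *Kdr* was listed at 0.0316 and 0.0235 FPKM in Sp3-/- ESC and at 171 and 189.5 FPKM in Flk1+ cells, a log2 difference of 10.46 (SE 0.26, adjusted p = 1.3e-15). Its protein was the handle for the purification, so the level of *Kdr* is a check of the sort and no finding. *Mesp1*, the earliest marker of cardiovascular mesoderm, went from 0 and 0.0697 to 101 and 146 FPKM, a difference of 9.87 (SE 0.32). *Aplnr*, the receptor for apelin, went from 0.00891 and 0 to 65.2 and 83.9 FPKM, a difference of 9.47 (SE 0.31). Others among the 12 largest were the factors *Lhx1* (8.83), *Prdm6* (8.26), *Gata6* (8.16) and *Evx1* (7.995), the Wnt agonist *Rspo3* (8.01), the receptor *Pdgfra* (7.96), the protocadherin gene *Pcdh7* (7.95), and *Klhl6* (8.43) and *Vstm2b* (8.28). Their WT differences lay between 6.34 and 9.37. None of these 9 genes differed significantly between the Sp3-/- and the WT step.

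The 12 largest falls took genes from 37.6 to 186 FPKM in ESC to at most 1.01 FPKM in Flk1+ cells. *Spp1*, which encodes the secreted protein osteopontin, went from 118 and 117 FPKM in Sp3-/- ESC to 0.0625 and 0 FPKM, a log2 difference of -9.85 (SE 0.78, adjusted p = 4e-09). *Tdh*, the threonine dehydrogenase on which mouse ESC depend, went from 183 and 186 to 1.01 and 0.28 FPKM (-8.15, SE 0.55), and the F-box gene *Fbxo15* from 128 and 134 to 0.0937 and 0.447 FPKM (-8.65, SE 0.55). *Rpl10l*, a retrocopy of a ribosomal protein gene, fell from 70.5 and 62.3 to 0 and 0.0367 FPKM (-9.15, SE 0.46). The keratin gene *Krt42* and the nuclear receptor gene *Nr0b1* went from between 37.6 and 46.1 FPKM in ESC to a listed 0 in both Flk1+ samples. *Calcoco2*, *AU018091*, *Dppa3*, *Fam25c* and *Tcl1* were also among the 12, with 40.7 to 55.2 FPKM in ESC and at most 0.215 FPKM in Flk1+ cells. None of the 12 differed significantly from the WT step.

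**Figure D1:**
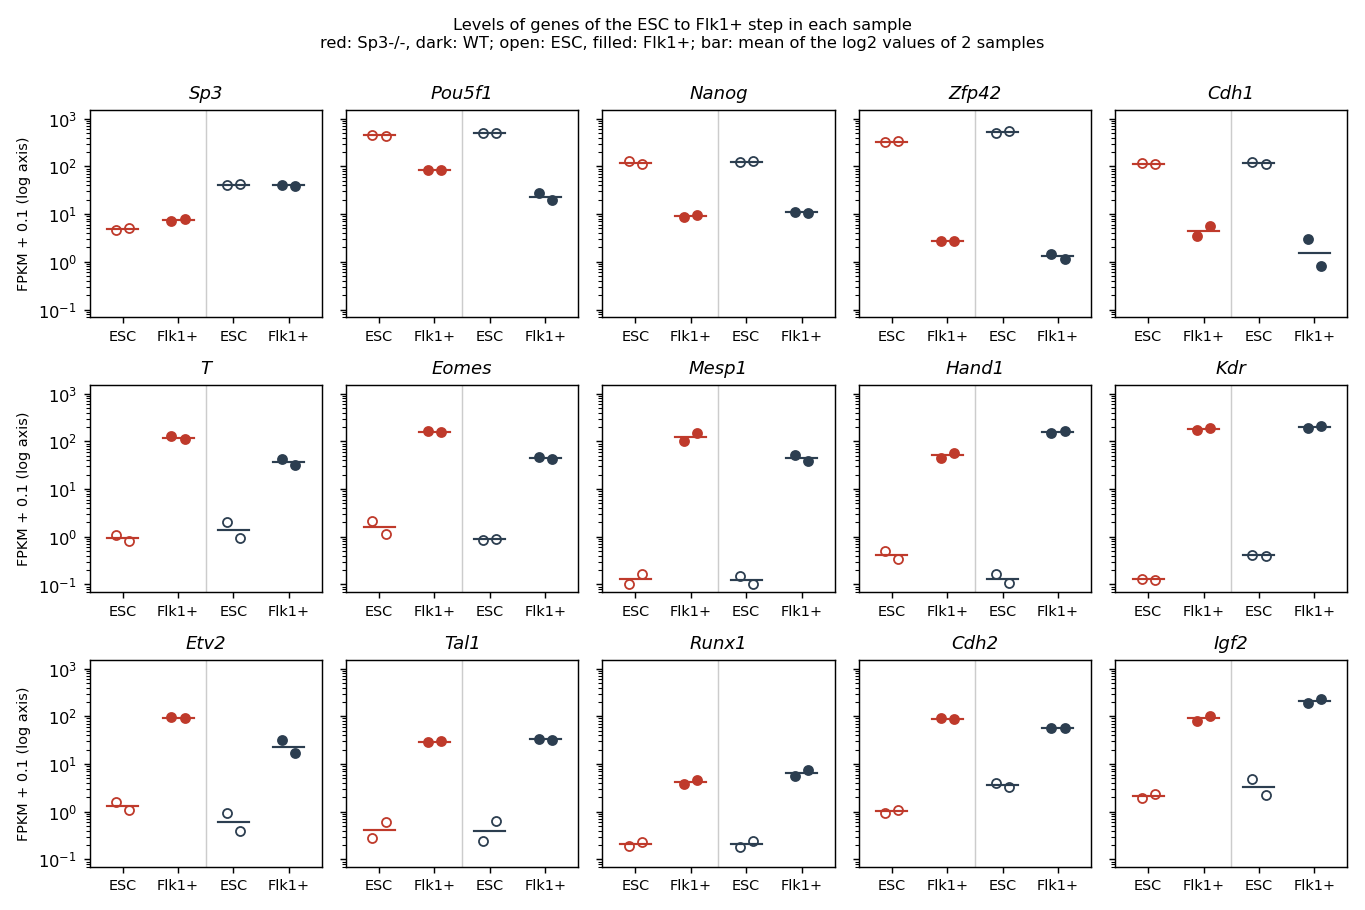
Level of 15 genes in each sample as FPKM + 0.1 on a log axis, with open circles for ESC, filled circles for Flk1+ cells, red for Sp3-/- and dark for WT, and a bar at the mean of the log2 values of 2 samples. *Sp3* lies between 4.47 and 7.79 FPKM in Sp3-/- samples against 38.7 to 42.7 FPKM in WT, while pluripotency genes fall and mesoderm genes rise in both genotypes.

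Counts over gene lists are to be read beside all genes tested, of which 26% rose and 22.8% fell. Of 29 genes of naive pluripotency, 25 fell in the Sp3-/- step, 1 rose and 3 were not called, beside the 22.8% of all genes that fell. Their median was -4.54 in Sp3-/- and -5.57 in WT cells, beside 0.03 over all genes in both. *Nanog* went from 127 and 112 to 8.72 and 9.35 FPKM (-3.71, SE 0.46, adjusted p = 1.4e-06), and *Zfp42* (Rex1) from 327 and 334 to 2.61 and 2.59 FPKM (-6.93, SE 0.64). *Pou5f1*, which encodes Oct4, went from 450.5 and 443 to 82.1 and 83.9 FPKM (-2.43, SE 0.73, adjusted p = 0.0095). In WT cells *Pou5f1* went from 501 and 489 to 27.4 and 19.6 FPKM (-4.41). Both Sp3-/- Flk1+ samples thus kept more *Pou5f1* than both WT ones, but the difference between the steps, 1.99, was not called (adjusted p = 0.43). The genes that did not fall, chosen after their values were seen, were *Tbx3*, which is also used by mesoderm and rose by 2.11, and *Sall4* (0.31), *Lin28a* (0.26) and *Tdgf1* (0.11), which were not called.

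Genes of formative and primed pluripotency, the stage between naive ESC and the streak, fell in 5 and rose in 3 of 12 cases, or 41.7% and 25% beside 22.8% and 26% of all genes, with a median of -0.84 in Sp3-/- and -2.25 in WT cells. *Foxd3* fell from 10.3 and 9.10 to 0.108 and 0.0576 FPKM (-5.76, SE 0.39), and *Pou3f1* (Oct6) by 3.42. *Otx2*, a factor of the primed epiblast, behaved differently. It stood at 23.2 and 22 FPKM in Sp3-/- ESC and at 20.9 and 23.1 FPKM in Sp3-/- Flk1+ cells, so that the populations overlapped, while in WT cells it went from 23.7 and 19.1 to 3.53 and 1.92 FPKM. The difference between the steps was 2.94 (SE 0.58, adjusted p = 0.015). *Fgf5*, the classical marker of the primed epiblast, rose from 1.22 and 1.13 to 3.38 and 2.81 FPKM in Sp3-/- cells and fell from 2.66 and 0.813 to 0.445 and 0.149 FPKM in WT cells (difference 3.43, SE 0.75, adjusted p = 0.025). The rise of *Fgf5* in Sp3-/- cells had an adjusted p of 0.046, and of 0.0957 to 0.17 without any one sample. Both genes stood higher in both Sp3-/- than in both WT Flk1+ samples.

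Germline genes, which ESC express at low levels and somatic cells silence by DNA methylation, fell as a group. Of 24 tested, 21 fell and none rose, with a median of -4.25 (WT -4.71). *Mael*, which acts in the piRNA pathway, went from 5.04 and 5.20 FPKM to a listed 0 in both samples, and the homeobox gene *Rhox6* from 21.6 and 19 FPKM to 0. *Ddx4* (Vasa) fell less, from 5.62 and 5.34 to 0.920 and 0.683 FPKM (-2.64, SE 0.48). Among the enzymes of DNA methylation, *Dnmt3l*, the catalytically inactive partner of the de novo methyltransferases, fell from 143 and 135 to 0.452 and 0.896 FPKM (-7.55, SE 0.34). The demethylases *Tet1* and *Tet2* fell by 2.88 and 2.62, while *Tet3*, chosen after its value was seen, rose by 1.42. The maintenance enzyme gene *Dnmt1* was at 91.6 and 85.3 FPKM in ESC and at 95.6 and 104 FPKM in Flk1+ cells, a difference of 0.17 that was not called.

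The primitive streak and Nodal pathway genes made the largest median rise of all lists, 5.68, beside 3.20 in WT cells. All 22 tested were called, 19 higher and 3 lower. A further 4 genes of the list, *Mixl1*, *Wnt3a*, *Cdx1* and *Cdx4*, were not analysed here. *T* (Brachyury), the defining factor of the streak, went from 0.972 and 0.705 to 128 and 112 FPKM (7.01, SE 0.58, adjusted p = 6.3e-09), and in WT cells from 1.91 and 0.826 to 41.9 and 31.6 FPKM. *Eomes*, its T-box relative, went from 2.08 and 1.03 to 166 and 154 FPKM (6.68, SE 0.45), and in WT cells reached 46.6 and 41.9 FPKM. The homeobox gene *Lhx1* went from 0.0138 and 0 to 48.2 and 48.5 FPKM, and in WT cells reached 11.9 and 9.39 FPKM. For each of these, both Sp3-/- Flk1+ samples were above both WT ones, but the difference of the steps was not called (*T* 2.27, adjusted p = 0.19, *Eomes* 1.03, 0.54, *Lhx1* 2.29, 0.061).

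The 3 genes of the list that fell were the ligand gene *Nodal* (-3.37) and its antagonists *Lefty1* (-5.53) and *Lefty2*, with the first 2 chosen after their values were seen. *Lefty2* went from 105 and 99.8 to 23 and 27 FPKM in Sp3-/- cells (-2.03, SE 0.53) and from 70.9 and 60.3 to 1.81 and 0.778 FPKM in WT cells (-5.66), and its steps differed by 3.63 (SE 0.75, adjusted p = 0.018). *Cfc1*, which encodes the Nodal coreceptor Cryptic, went the other way. It rose from 1.14 and 0.897 to 16.7 and 31.3 FPKM in Sp3-/- cells and from 0.788 and 0.475 to 99.4 and 108 FPKM in WT cells, and its steps differed by -2.81 (SE 0.54, adjusted p = 0.013).

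Lateral plate and cardiac mesoderm genes rose in 19 of 22 cases and fell in none, with a median of 4.21 in Sp3-/- and 4.85 in WT cells. *Hand1*, a factor of extraembryonic and lateral mesoderm, went from 0.400 and 0.243 to 45.3 and 56.3 FPKM (6.93, SE 1.22), and in WT cells from 0.0628 and 0.00664 to 153 and 168 FPKM (10.25). This difference of -3.31 was not called (adjusted p = 0.44). *Gata4* went from 0.970 and 0.752 to 47.5 and 62.8 FPKM (5.84, SE 0.36) and *Foxf1*, which marks splanchnic mesoderm, from a listed 0 to 13.6 and 25.2 FPKM. *Gata4* was higher in both Sp3-/- ESC samples than in the WT ones at 0.133 and 0.224 FPKM.

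Of the signalling pathways, BMP, Wnt and FGF genes were followed from ligands to targets. In the BMP pathway 16 of 23 genes rose and 4 fell. The ligand genes *Bmp2* (from 0.0119 and 0.0106 to 18.4 and 20.7 FPKM), *Bmp7* (3.78) and *Bmp4* (1.49, adjusted p = 0.014, and 0.0548 to 0.0593 without any one sample) rose, as did the target genes *Msx1* (6.68) and *Msx2* (6.29). The genes that fell, chosen after their values were seen, were the antagonists *Chrd* (-1.78) and *Grem1* (-1.65), the receptor gene *Bmpr1b* (-1.18) and the target *Id2* (-1.28). *Smad6*, the inhibitory Smad that BMP induces, went from 2.88 and 3.68 to 29.1 and 31.3 FPKM in Sp3-/- and from 0.620 and 0.892 to 24.2 and 25.4 FPKM in WT cells, and its steps differed by -1.71 (SE 0.37, adjusted p = 0.025). The gap lay in ESC, where both Sp3-/- samples exceeded both WT samples.

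In the Wnt pathway 21 of 30 genes rose and 5 fell, with a median of 1.59 (WT 1.51). The ligand genes *Wnt3* (6.29) and *Wnt5a* (6.50), the agonist *Rspo3* (8.01), the antagonist and target *Dkk1* (7.03) and the nuclear effector *Lef1* (3.58) rose in the Sp3-/- step. *Ctnnb1*, which encodes β-catenin and was chosen after its value was seen, differed by 0.16 and was not called. In the FGF pathway 8 of 19 genes rose and 3 fell. *Fgf4*, the ligand of ESC, fell from 57.5 and 57.7 to 1.22 and 1.49 FPKM (-5.32, SE 0.25), whereas the streak ligands *Fgf8* (5.75) and *Fgf3* (6.08) rose. *Dusp6*, the phosphatase that ERK signalling induces, rose from 24.4 and 23.6 to 77.3 and 58.4 FPKM in Sp3-/- cells, and went from 28.6 and 22.5 to 20.5 and 13.6 FPKM in WT cells (difference 2.08, SE 0.47, adjusted p = 0.031).

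Genes of the haemangioblast and endothelium rose in 20 of 27 cases, with 1 lower and a median of 4.65 (WT 3.40). *Etv2*, the pioneer factor of the haemangioblast, went from 1.52 and 1.01 to 96.1 and 90.2 FPKM (6.12, SE 0.46, adjusted p = 1.6e-09), while both WT Flk1+ samples stood lower, at 31.4 and 17 FPKM. *Tal1* went from 0.182 and 0.499 to 28.7 and 29.9 FPKM (6.16, SE 0.35) and its partner *Lmo2* from 0.257 and 0.144 to 52.2 and 42.1 FPKM (7.31, SE 0.21). The difference to the WT step was not called for these 3 factors (0.87, -0.25 and 0.68). *Pecam1*, which ESC also express, was the gene that fell (-3.62, chosen after its value was seen).

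In this list 4 genes had steps that differed from WT, each higher in Sp3-/- cells, and apart from *Kdr* they are named after their values were seen. *Icam2*, an adhesion molecule of endothelium, went from a listed 0 in both Sp3-/- ESC samples to 2.48 and 2.35 FPKM, and in WT cells from 0.0271 and 0 to 0.259 and 0.280 FPKM (difference 2.94, SE 0.38, adjusted p = 0.00062). *Cdh5* (VE-cadherin) reached 5.42 and 4.85 FPKM in Sp3-/- and 1.62 and 2.09 FPKM in WT Flk1+ cells (difference 1.90, SE 0.43, adjusted p = 0.029). *Tek*, the angiopoietin receptor, stayed between 2.77 and 3.38 FPKM in all 4 Sp3-/- samples and went from 4.48 and 4.27 to 1.22 and 1.29 FPKM in WT cells (difference 1.83, SE 0.42, adjusted p = 0.034). For *Kdr* the Flk1+ levels of both genotypes lay close together, and the difference of 1.53 came from ESC values of 0.0316 and 0.0235 against 0.322 and 0.297 FPKM. With a pseudocount of 1 it was 0.20 (adjusted p = 0.91), and that of *Cdh5* 1.18 (0.11) and that of *Tek* 1.34 (0.070).

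Of 23 genes of blood cells, 10 rose and 1 fell. *Runx1*, the factor of definitive haematopoiesis, went from 0.0930 and 0.134 to 3.73 and 4.58 FPKM (4.32, SE 0.70) and *Itga2b* (CD41) from 0.103 and 0.0142 to 2.33 and 2.07 FPKM (3.91, SE 0.47). The globin genes *Hba-x* and *Hbb-y*, the platelet gene *Pf4* and *Ptprc* (CD45) were listed at 0 in all 4 Sp3-/- samples (chosen after their values were seen). *Gfi1b*, a transcriptional repressor found in blood cells, went from 0.197 and 0.143 to 0.551 and 1.47 FPKM in Sp3-/- and from 0.00105 and 0 to 1.84 and 2.09 FPKM in WT cells (difference -2.45, SE 0.53, adjusted p = 0.024). It was not called with a pseudocount of 1 (-0.82, adjusted p = 0.24).

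Marker lists of other cell types were followed to see what else the populations held. Of 20 neural genes only 8 were tested, of which 2 rose and 4 fell. *Pax6* and *Tubb3*, at 2.90 to 54.6 FPKM in Sp3-/- ESC, fell to at most 0.617 FPKM, whereas *Sox11*, a factor of neural and other progenitors, rose from 2.38 and 2.05 to 24 and 26.2 FPKM (3.44, SE 0.70, adjusted p = 0.0004). The neural and epiblast gene *Nes* went from 8.83 and 8.31 to 15.3 and 11.2 FPKM in Sp3-/- cells and from 18.5 and 11.3 to 7.14 and 5.81 FPKM in WT cells (difference 1.76, SE 0.40, adjusted p = 0.029). The summed neural list was 70.5 and 70.8 FPKM in Sp3-/- ESC, 42.2 and 39.5 FPKM in Sp3-/- Flk1+ cells and 34.2 and 32.2 FPKM in WT Flk1+ cells. *Tubb3* alone, at 53.5 and 54.6 FPKM, made up most of the sum in Sp3-/- ESC. *Sox11* and *Nes*, which are not specific to neural cells, made up most of it in Flk1+ cells of both genotypes.

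Of 18 endoderm genes 8 were tested, of which 5 rose and 1 fell. *Sox17* reached 1.23 and 0.808 FPKM and *Hhex*, which the haemangioblast shares, 8.59 and 7.36 FPKM. The summed list was 15.4 and 15.8 FPKM in Sp3-/- and 10.04 and 9.33 FPKM in WT Flk1+ cells, against 4.96 to 6.57 FPKM in ESC of both genotypes. Fibroblast genes, which feeder cells would carry into ESC samples, rose in 4 and fell in 3 of 15 cases. *Col1a1* was at 1.09 and 3.64 FPKM in the Sp3-/- ESC samples and *Col1a2* at 1.66 and 4.54 FPKM, with the second sample higher in both genes. Among the 4 Sp3-/- samples of the step, *S100a4* and *Acta2* were also highest in that sample, at 5.40 and 9.23 FPKM, and fell in the step. *Pdgfrb*, the platelet-derived growth factor receptor of mural cells and fibroblasts, rose from 0.172 and 0.393 to 5.19 and 4.47 FPKM (3.75, SE 0.51). The summed fibroblast list was 135.6 and 165.4 FPKM in Sp3-/- ESC and 639.9 and 543.1 FPKM in Sp3-/- Flk1+ cells, against 215.8 and 141.4 and then 625.6 and 774.7 FPKM in WT cells. The median step of the list was -0.627 (WT 0.255), so in Sp3-/- cells the rise of the sum rested on a part of its members. The part of other cells in the results above was not tested.

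Of 30 genes that mark epithelial or mesenchymal cells 12 rose and 10 fell. *Cdh1* (E-cadherin) fell from 115 and 113 to 3.41 and 5.45 FPKM (-4.69, SE 0.90) and *Epcam* from 41.6 and 38.6 to 8.45 and 7.17 FPKM (-2.35, SE 0.61). *Cdh11* rose by 7.13 (SE 1.02). *Cdh2* (N-cadherin) rose from 0.855 and 0.989 to 91.9 and 86.8 FPKM in Sp3-/- cells (6.45, SE 0.20) and from 3.88 and 3.26 to 57.2 and 56.2 FPKM in WT cells (3.96). Its steps differed by 2.50 (SE 0.28, adjusted p = 0.00019), since the Sp3-/- samples lay below WT in ESC and above WT in Flk1+ cells, without overlap in either. Collagen and laminin genes rose in 17 and fell in 8 of 40 cases, with *Col14a1* (5.85) and *Col23a1* (5.46) at the upper end and *Col9a2* (-5.18) at the lower.

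Imprinted genes, expressed from 1 parental allele and important for growth, rose in 22 of 36 cases and fell in 1, beside 26% of all genes that rose. *Igf2*, the foetal growth factor, went from 1.84 and 2.26 to 81.2 and 101 FPKM (5.41, SE 0.46) and the noncoding *H19* from 2.59 and 3.25 to 34.8 and 46.9 FPKM (3.75, SE 0.60). *Peg3* rose from 11.3 and 11.1 to 218 and 208 FPKM (4.24, SE 0.29). The WT differences of these 3 were 6.01, 4.35 and 4.09, and for none was the difference of the steps called. In Flk1+ cells the Sp3-/- samples lay below both WT samples in *Igf2* and *Peg3*. The summed list was 1393 and 1485 FPKM in Sp3-/- and 2022 and 2397 FPKM in WT Flk1+ cells. *Hox* genes rose in 9 and fell in 2 of 22 cases. The rise was led by the anterior *Hoxb1* (a listed 0 to 7.75 and 6.15 FPKM) and *Hoxb2* (5.15), and the summed list reached 20.9 and 18 FPKM in Sp3-/- and 18.4 and 19.5 FPKM in WT Flk1+ cells.

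Of 24 genes of cholesterol synthesis 15 rose, 1 fell and 8 were not called, with a median of 0.57 (WT 0.37). *Hmgcs1* went from 58.5 and 63.1 to 133 and 135 FPKM (1.13, SE 0.19) and *Cyp51* from 19.96 and 20.6 to 52 and 52.2 FPKM (1.36, SE 0.13). Of 24 glycolysis genes 7 rose and 4 fell, 29.2% and 16.7% beside 26% and 22.8% of all genes. The lactate exporter gene *Slc16a3* rose by 1.68, and *Hk1* and the brake on pyruvate oxidation *Pdk1* fell by 1.91 and 1.49.

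Cell cycle inhibitors and p53 targets fell in 12 and rose in 4 of 22 cases, with a median of -0.71 (WT -0.28). *Perp* (-3.14), *Gadd45a* (-2.66) and *Cdkn2a* (-2.34) fell most, though *Cdkn2a* was at -1.47 (adjusted p = 0.103) without the second Flk1+ sample. *Cdkn1a*, which encodes p21, fell from 7.78 and 7.66 to 4.64 and 4.03 FPKM in Sp3-/- cells and rose from 5.74 and 3.81 to 7.78 and 9.50 FPKM in WT cells, and the steps differed by -1.69 (SE 0.28, adjusted p = 0.0039). *Phlda3*, another p53 target chosen after its values were seen, fell from 14.8 and 15.9 to 5.62 and 6.22 FPKM in Sp3-/- cells and was at 15.6 and 10.1 FPKM in WT ESC and 13.5 and 12.9 FPKM in WT Flk1+ cells (difference -1.43, SE 0.23, adjusted p = 0.003). In Sp1 ΔDBD/ΔDBD cells *Cdkn1a* and *Phlda3* had steps of -1.26 and -1.72.

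Of 84 cytosolic ribosomal protein genes 5 rose and 10 fell, with a median of 0.02, and of 38 proteasome genes 1 rose and 6 fell, with a median of -0.11. Those called with the largest changes included the retrocopies *Rpl10l* and *Rpl39l* (-7.27), the proteasome subunit gene of germ cells *Psma8* (-5.09), the constitutive subunit gene *Psmd7*, which fell from 135 and 129 to 85.8 and 74.7 FPKM (-0.72, SE 0.15), and the inducible subunit gene *Psmb8*, which rose from 0.534 and 0.681 to 6.38 and 4.44 FPKM. *Rps27* was listed at 11.1 and 10.2 FPKM in Sp3-/- ESC and at 1313 in both Sp3-/- Flk1+ samples. It was at 7.77 and 1187 FPKM in the 2 WT Flk1+ samples and is uncertain. Ribosomal protein genes have many near-identical copies, and whether these played a part was not tested.

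The summed level of clustered histone genes lay further apart between genotypes than between populations. In Sp3-/- cells 3 of 68 rose and 2 fell, and in WT cells 33 rose and 3 fell. Their summed level was 29500 and 27290 FPKM in Sp3-/- ESC and 34190 and 34130 FPKM in Sp3-/- Flk1+ cells, against 11230 and 7301 and then 16730 and 15400 FPKM in WT cells. Of their 68 step differences only that of *Hist2h2bb* was called (1.17, adjusted p = 0.015). The distance between genotypes also went with the GC content of transcripts over 11524 autosomal genes above 3 FPKM. The Spearman rho was 0.505 in ESC and 0.375 in Flk1+ cells, and its part in the histone levels was not tested. These genes are near-identical copies of each other, so reads could be split among them, and *Hist2h3c2* was listed at 245 in one Sp3-/- ESC sample and at 1.66 FPKM in the other.

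**Figure D2:**
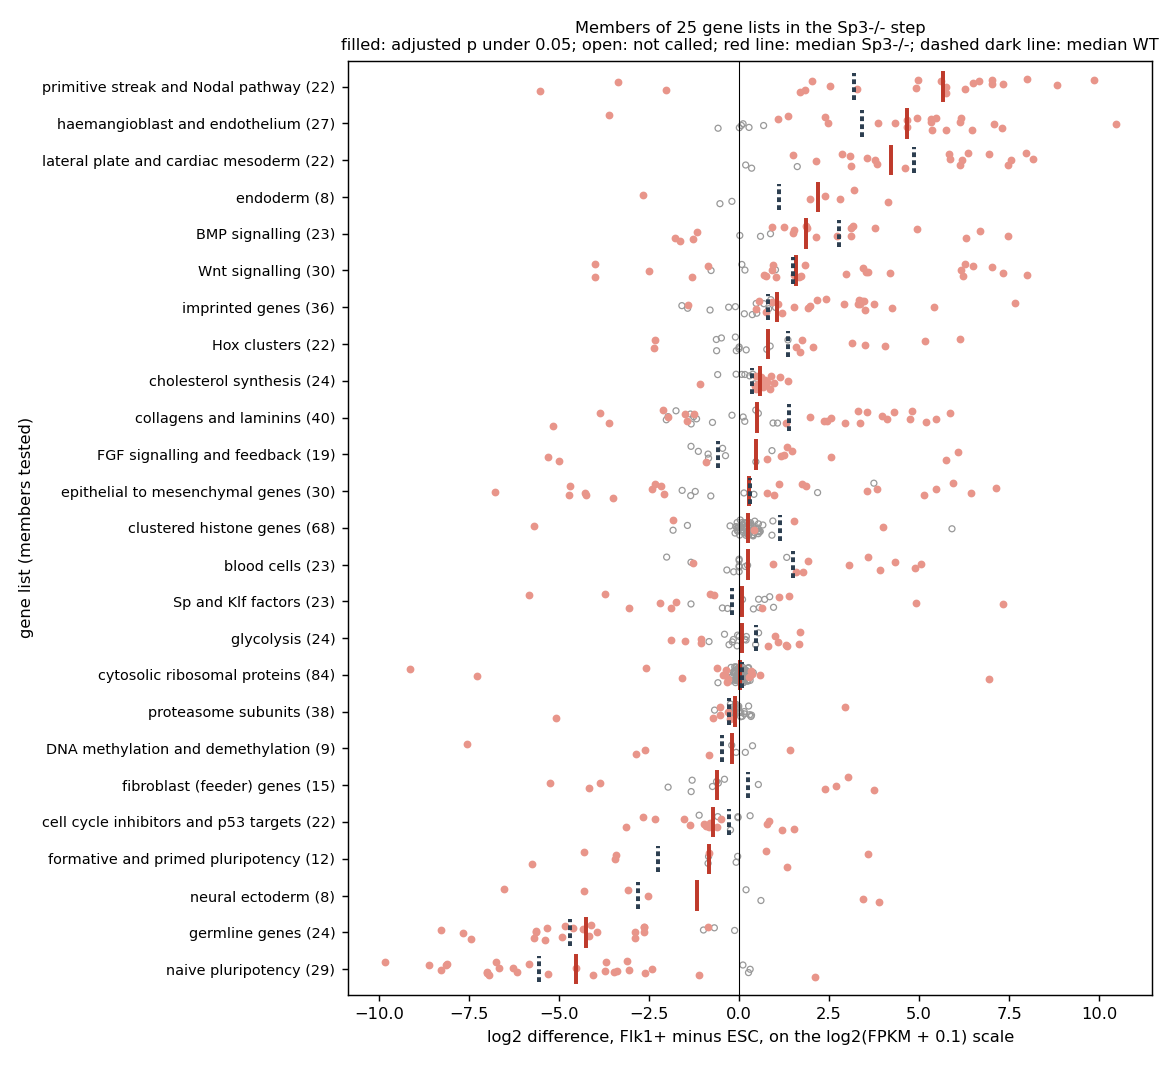
Log2 difference between Flk1+ cells and ESC in Sp3-/- cells for each tested member of 25 gene lists, with filled points for genes with an adjusted p under 0.05, a red line at the Sp3-/- median and a dashed dark line at the WT median. The medians run from -4.54 for naive pluripotency to 5.68 for the primitive streak and Nodal pathway, and the Sp3-/- median is nearer 0 than the WT median for the pluripotency lists and farther from 0 for the streak list.

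Among the 23 tested genes of the Sp and Klf families, to which *Sp3* belongs, 5 rose and 8 fell, 21.7% and 34.8% beside 26% and 22.8% of all genes. The ESC factors *Klf2* (62.6 and 68.4 to 1.04 and 1.05 FPKM, -5.84), *Klf5* (-3.72) and *Klf4* (-3.06) fell, the last 2 chosen after their values were seen. *Sp2* fell from 10.9 and 11.2 to 6.33 and 6.19 FPKM (-0.81, SE 0.28, adjusted p = 0.024, and 0.0756 to 0.0938 without any one sample). *Sp8* rose from 0.0652 and 0.127 to 5.42 and 6 FPKM (4.91, SE 0.42). *Sp5*, a factor that Wnt signalling induces in the streak, rose most. It went from 0 and 0.102 to 25.1 and 20.5 FPKM in Sp3-/- cells (7.32, SE 0.52, adjusted p = 9.1e-10), from 0.544 and 0.328 to 2.72 and 1.90 FPKM in WT cells (2.18) and from 0.0519 and 0.299 to 9.86 and 3.70 FPKM in Sp1 ΔDBD/ΔDBD cells (4.64). Both Sp3-/- samples were below both WT samples in ESC and above them in Flk1+ cells, and the difference from the WT step was 5.14 (SE 0.74, adjusted p = 0.0016), the largest among called genes above 3 FPKM. *Klf10*, which TGF-β induces, went from 24.6 and 24.1 to 15.1 and 20.4 FPKM in Sp3-/- and rose from 31 and 25.6 to 46.7 and 47.8 FPKM in WT cells (difference -1.21, SE 0.28, adjusted p = 0.034).

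Across genes the Sp3-/- step followed the WT step closely. The log2 differences of the 2 steps, which share no sample, had a Pearson r of 0.912 and a Spearman rho of 0.869 over 14525 genes. These are given as a description, since genes are not independent. In the WT step 3985 genes rose (27.4%) and 3590 fell (24.7%). Of the 2854 genes past 2-fold in Sp3-/- cells, 2814 moved in the same direction in WT cells and 2601 were also called there. The 1477 risers had a median of 1.84 in Sp3-/- and 1.72 in WT cells, and the 1377 fallers of -2.23 and -2.17. Both sets were chosen by their Sp3-/- step, and this choice by itself favours a larger median there. Over all genes tested the standard deviation of the log2 differences was 1.716 in Sp3-/- and 1.714 in WT cells.

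The difference between the steps was tested directly for each gene. It was called for 215 genes (1.48%), of which 145 were higher (0.998%), that is rose more or fell less in Sp3-/- than in WT cells, and 70 were lower (0.482%). Centring each sample on the ribosomal protein genes moved the median difference by 0.18 and gave 333 higher and 58 lower, so that the share of higher calls went from 67.4% to 85.2%. It was 50.8% when the ESC and Flk1+ samples alone were fitted, with 101 higher and 98 lower, of which 56 and 33 were among the 145 and 70. Fewer genes were called when any one of the 8 Sp3-/- and WT samples was left out, which leaves 1 sample in its group. In each of these fits all of the 145 and all of the 70 kept the sign of their difference. Without the second WT Flk1+ sample 28 of the 145 and 13 of the 70 were still called, without the first 67 and 29, without the first WT ESC sample 68 and 29, and without the second 82 and 39. Without the first Sp3-/- Flk1+ sample it was 37 and 22, without the second 71 and 32, without the first Sp3-/- ESC sample 52 and 18, and without the second 49 and 21. Of the 215 genes, 23 were called in every alternative tried, 16 of them higher. Among the genes described here, the call stood when any one of the 8 Sp3-/- and WT samples was left out for *Sp5*, *Cdh2*, *Icam2*, *Pim2*, *Epha1*, *Cd34*, *Gm21293*, *Rps6ka4*, *Unc5c*, *Mmp15*, *Stard8*, *Cdkn1a*, *Phlda3* and *Immp2l*. It was lost whichever sample was left out for *Kdr*, *Cdh5*, *Tek*, *Dnah8* and *Nkx2-9*, and stood in 5 of 8 cases for *Dll1* and *Cfc1*. For all others described here it stood in 1 to 3 of 8 cases. *Cdkn1a*, *Phlda3*, *Gm21293* and *Cd34* each lost their call in 1 of the 9 alternatives that keep all of these samples (adjusted p = 0.0566, 0.0519, 0.079 and 0.059).

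**Figure D3:**
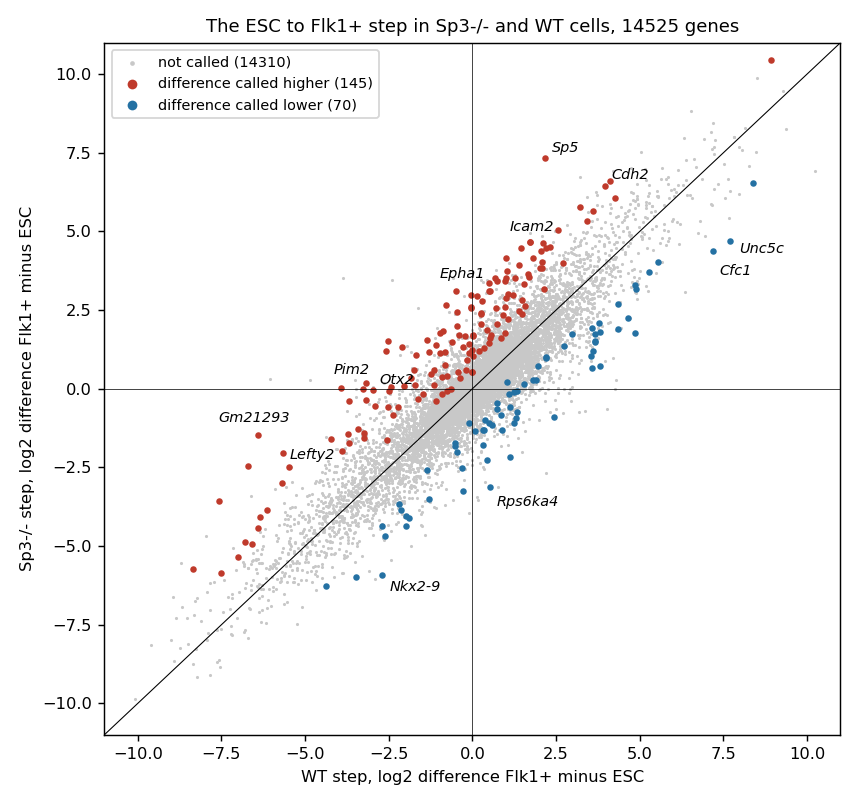
Log2 difference between Flk1+ cells and ESC for each of 14525 genes, with WT on the horizontal and Sp3-/- on the vertical axis and the diagonal marking equal steps. Red points are the 145 genes and blue points the 70 genes whose steps differed, and most grey points lie along the diagonal (Pearson r 0.912).

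The gap between genotypes arose in both populations. Among the 145 genes with a higher step, 75 had the larger distance between Sp3-/- and WT in ESC, where Sp3-/- was mostly lower, and 70 in Flk1+ cells. Among the 70 with a lower step it was 24 in ESC and 46 in Flk1+ cells. In 72 of the 145 both steps were called in the same direction, 37 were called in Sp3-/- alone, 24 in WT alone and 12 were called in opposite directions. The corresponding counts among the 70 were 36, 16, 14 and 4. These counts describe how the called genes were composed and carry no test.

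Among genes with a higher step, *Pim2*, a serine/threonine kinase that promotes survival, stood at 11.4 and 10.9 FPKM in Sp3-/- ESC and 13.5 and 9.62 FPKM in Sp3-/- Flk1+ cells, which overlapped. In WT cells it went from 22.3 and 16.6 to 1.71 and 0.779 FPKM, and the steps differed by 3.97 (SE 0.52, adjusted p = 0.00062). *Epha1*, an ephrin receptor, rose from 1.84 and 1.45 to 13.8 and 16.1 FPKM in Sp3-/- cells and went from 7.15 and 3.64 to 4.48 and 2.89 FPKM in WT cells (difference 3.61, SE 0.53, adjusted p = 0.0016). The Notch ligand gene *Dll1* rose from 0.603 and 0.797 to 3.65 and 6.55 FPKM and stayed between 0.587 and 1.84 FPKM in all WT samples (difference 3.43, adjusted p = 0.012). *Dnah8*, an axonemal dynein gene, and *Gad1*, which makes the transmitter GABA, had differences of 3.78 and 3.0.

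A further 3 genes with a higher step lie side by side. *Gm21293* (chr10:104142987-104153674), *Gm6763* (chr10:104151497-104153965) and *Gm8764* (chr10:104160006-104162473, all GRCm38) are protein-coding gene models on the plus strand, of which the first 2 overlap, so their reads cannot be assigned with certainty and the 3 are not independent. In WT ESC they stood at 4.03 to 23.6 FPKM and in Sp3-/- ESC at 0.121 to 2.99 FPKM. All were at or below 0.0194 FPKM in Flk1+ cells of both genotypes, so that their differences of 4.93, 4.25 and 4.0 arose in ESC. The low ESC level was shared by Sp1 ΔDBD/ΔDBD ESC, where the 3 stood at 0.0104 to 2.41 FPKM. Their differences to the Sp1 ΔDBD/ΔDBD step, -0.11, -0.32 and -0.33, were not called. *Zscan4c* and *Zscan4d*, genes of a rare state of ESC that resembles the early embryo and chosen after their values were seen, had the same shape. *Zscan4c* was at 4.48 and 3.53 FPKM in Sp3-/- and at 11.8 and 17.3 FPKM in WT ESC, and at most at 0.0239 FPKM in Flk1+ cells (difference 1.67, adjusted p = 0.024). In Sp1 ΔDBD/ΔDBD ESC it was at 3.805 and 4.15 FPKM, close to the Sp3-/- values.

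Among genes with a lower step, *Rps6ka4*, the kinase MSK2 that acts on chromatin, fell from 3.17 and 4.33 to 0.241 and 0.465 FPKM in Sp3-/- cells and was at 1.67 and 1.80 FPKM in WT ESC and 2.47 and 2.58 FPKM in WT Flk1+ cells. Its steps differed by -3.63 (SE 0.54, adjusted p = 0.0019). *Unc5c*, a netrin receptor, rose from 0.0127 and 0.0220 to 3.34 and 2.63 FPKM in Sp3-/- and from 0.0181 and 0.0186 to 21.2 and 28.7 FPKM in WT cells (difference -3.00, SE 0.45, adjusted p = 0.0019). ESC of both genotypes were alike in *Unc5c*, and the WT Flk1+ samples exceeded the Sp3-/- ones.

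Both WT Flk1+ samples were also above both Sp3-/- ones in *Pdlim4*, which encodes an actin-binding LIM protein, with 10.1 and 11.6 FPKM in Sp3-/- and 44.1 and 53.4 FPKM in WT Flk1+ cells (difference -3.07, adjusted p = 0.044), as did the gene *Stard8* with 16.6 and 19.3 against 52.9 and 56.7 FPKM (-2.18, adjusted p = 0.003) and the matrix protease gene *Mmp15* with 5.94 and 5.54 against 15.7 and 17.9 FPKM (-2.40, adjusted p = 0.0039). In *Stard8* and *Mmp15* the order was the reverse in ESC, with 6.13 and 6.47 against 4.87 and 3.61 FPKM and 2.53 and 2.37 against 1.4 and 1.2 FPKM. *Gjb2*, the gene of connexin 26, and *Sapcd1* had differences of -2.41 and -2.13. The homeobox gene *Nkx2-9* differed in ESC, with 6.16 and 5.80 FPKM in Sp3-/- against 0.523 and 0.567 FPKM in WT, and was listed at 0 in all Flk1+ samples (-3.24, adjusted p = 0.031). *Spink1*, a trypsin inhibitor, was listed at 0 in both Sp3-/- Flk1+ samples and at 1.48 and 1.27 FPKM in the WT ones, and its difference of -2.50 vanished with a pseudocount of 1 (0.02).

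**Figure D4:**
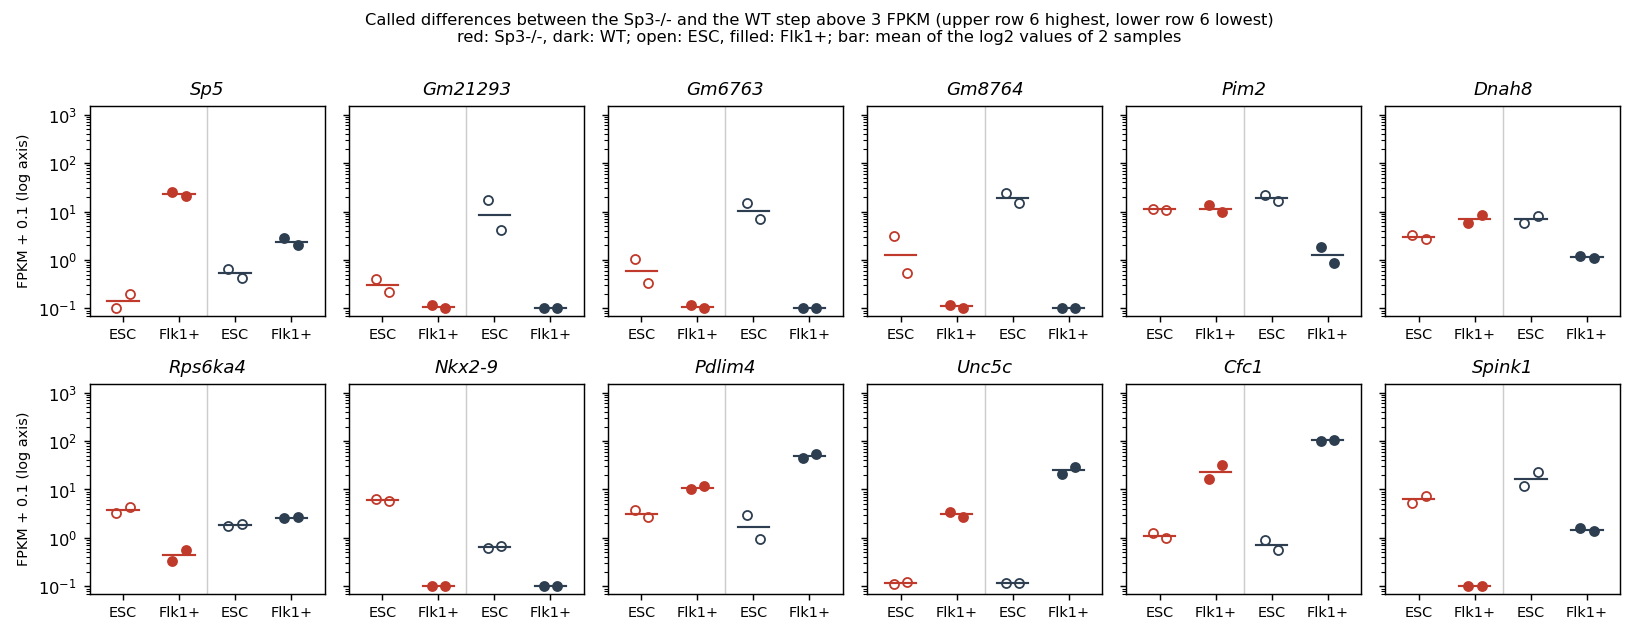
Level in each sample of the 6 genes with the highest and the 6 with the lowest called difference between the Sp3-/- and the WT step above 3 FPKM, as FPKM + 0.1 on a log axis, with open circles for ESC, filled circles for Flk1+ cells, red for Sp3-/- and dark for WT, and a bar at the mean of the log2 values of 2 samples. *Sp5* reaches 25.1 and 20.5 FPKM in Sp3-/- and 2.72 and 1.90 FPKM in WT Flk1+ cells, and *Cfc1* 16.7 and 31.3 against 99.4 and 108 FPKM.

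Opposite movements, each called in its own right, were found in 16 of the 215 genes. Those in which Sp3-/- fell and WT rose were *Cdkn1a*, *Immp2l*, *Arrdc4* and *Trim34a*, the last 2 chosen after their values were seen. *Immp2l*, a peptidase of the inner mitochondrial membrane, went from 2.54 and 3.05 to 1.06 and 1.83 FPKM in Sp3-/- and from 2.05 and 1.79 to 5.35 and 4.42 FPKM in WT cells (difference -2.24, adjusted p = 0.0039). In the other direction *Cd34*, the glycoprotein of haematopoietic and endothelial progenitors and also chosen after its values were seen, rose from 0.381 and 0.387 to 1.22 and 1.34 FPKM in Sp3-/- cells and fell from 1.63 and 2.76 to 0.319 and 0.262 FPKM in WT cells. Its difference of 4.02 (SE 0.66, adjusted p = 0.0039) was 2.01 with a pseudocount of 1 (adjusted p = 0.059).

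Set against the step in Sp1 ΔDBD/ΔDBD cells, the Sp3-/- step was higher for 25 genes (0.172%) and lower for 21 (0.145%). This comparison uses the same Sp3-/- samples as that with WT, so the values of some of the genes described above are given side by side. *Cdh2* rose by 6.45 in Sp3-/-, 4.27 in Sp1 ΔDBD/ΔDBD and 3.96 in WT cells, and the difference to Sp1 ΔDBD/ΔDBD was 2.18 (adjusted p = 0.00094). *Epha1* rose by 3.12 in Sp3-/- cells, where the other steps were 0.09 and -0.49, with a difference to Sp1 ΔDBD/ΔDBD of 3.03 (adjusted p = 0.013). For *Sp5* the difference to the Sp1 ΔDBD/ΔDBD step was 2.68 (adjusted p = 0.16), for *Pim2* 2.21 (0.097) and for *Rps6ka4* -2.43 (0.070). *Icam2* rose by 4.65 in Sp3-/- and by 4.85 in Sp1 ΔDBD/ΔDBD cells, and *Nkx2-9* stood at 7.26 and 3.62 FPKM in Sp1 ΔDBD/ΔDBD ESC, both close to the Sp3-/- values. Steps in Sp3-/- and Sp1 ΔDBD/ΔDBD cells were also close for other genes that differed from WT, chosen after their values were seen. They were 1.495 and 1.6 for *Stard8*, 3.17 and 3.10 for *Smad6*, and 1.78 and 2.05 for *Pdlim4*. For *Cdh5* they were 5.33 and 5.03, and for *Cd34* 1.51 and 1.91. None of these differences to the Sp1 ΔDBD/ΔDBD step was called.

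The GC content of the transcripts moved with the genotype within a population. Over 11524 autosomal genes above 3 FPKM the Spearman rho of GC content with the log2 distance between Sp3-/- and WT was 0.505 in ESC and 0.375 in Flk1+ cells, whereas it was 0.012 with the Sp3-/- step, 0.055 with the WT step and -0.114 with the difference of the steps. After a correction of each sample for GC content and length the difference of the steps gave 213 higher and 128 lower genes, and 141 of the 145 and 66 of the 70 were still called.

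Since Sp3 binds GC boxes, promoters were searched for the letters GGGCGG on either strand, in the 300 bases from 250 before to 50 after the start in RefSeq (GRCm38.p6). Of 11029 tested genes with an entry, 63.2% had a match. The share was 61% among 105 genes with a higher and 62% among 50 genes with a lower step difference, close to that of all genes. It was 72% among 1102 genes that rose more than 2-fold in the Sp3-/- step and 62.9% among 1041 that fell. A match is not a binding site, and no test was made.

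The promoters of the 2 highest and the 2 lowest genes with an entry are shown 5′ to 3′ on the strand of the gene, with GC boxes in capitals, as examples only. Over all called genes the share with a match was 61% for higher and 62% for lower step differences, so these examples do not stand for the rest. Those of *Sp5* (chr2:70474673-70474972, plus strand) and *Gm21293* (chr10:104142737-104143036, plus strand) held no match, that of *Rps6ka4* (chr19:6840578-6840877, minus strand) held 3 and that of *Nkx2-9* (chr12:56613235-56613534, minus strand) 4, of which a pair shares bases.
Sp5: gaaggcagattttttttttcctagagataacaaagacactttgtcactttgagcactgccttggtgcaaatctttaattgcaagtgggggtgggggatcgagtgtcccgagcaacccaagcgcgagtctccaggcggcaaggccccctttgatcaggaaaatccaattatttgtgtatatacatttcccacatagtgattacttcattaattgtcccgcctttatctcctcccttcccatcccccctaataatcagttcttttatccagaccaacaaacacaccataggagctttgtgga
Gm21293: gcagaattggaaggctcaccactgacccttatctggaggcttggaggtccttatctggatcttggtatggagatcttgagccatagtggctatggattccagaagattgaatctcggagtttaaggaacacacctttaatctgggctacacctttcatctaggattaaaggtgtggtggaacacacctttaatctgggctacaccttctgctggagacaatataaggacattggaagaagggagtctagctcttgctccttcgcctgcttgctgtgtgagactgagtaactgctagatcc
Rps6ka4: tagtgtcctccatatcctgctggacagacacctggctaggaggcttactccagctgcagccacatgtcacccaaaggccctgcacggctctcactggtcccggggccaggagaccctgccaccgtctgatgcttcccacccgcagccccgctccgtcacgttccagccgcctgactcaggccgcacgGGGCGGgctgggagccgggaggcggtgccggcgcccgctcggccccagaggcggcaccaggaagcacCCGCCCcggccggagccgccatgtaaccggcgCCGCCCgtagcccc
Nkx2-9: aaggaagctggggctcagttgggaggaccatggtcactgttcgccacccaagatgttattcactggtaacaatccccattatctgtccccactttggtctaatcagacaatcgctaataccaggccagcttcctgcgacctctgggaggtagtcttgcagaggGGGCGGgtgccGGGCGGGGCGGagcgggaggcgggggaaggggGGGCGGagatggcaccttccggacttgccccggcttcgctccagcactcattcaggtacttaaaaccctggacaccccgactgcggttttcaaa

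The later populations of the culture, HE1 and HE2 (stages of haemogenic endothelium) and progenitor cells, gave a mixed picture for the genes with the most stable differences. Values that are 0 in ESC and Flk1+ samples appear as small values above 0 in several later samples. *Sp5* was at most 0.212 FPKM in the 6 later samples of Sp3-/- and at most 0.0300 FPKM in those of WT cells. *Pim2* was at 2.49 and 3.49 FPKM in Sp3-/- and at 1.70 and 1.31 FPKM in WT HE1 cells, and at 8.45 to 10.5 FPKM in HE2 and progenitor cells of Sp3-/- and 5.33 to 11.1 FPKM in those of WT. *Unc5c* lay above WT within each later population, with 25.5 to 46.2 FPKM in the 6 later Sp3-/- samples and 10.9 to 28.7 FPKM in those of WT. *Rps6ka4* lay below WT within each, at 0.300 to 1.16 against 1.03 to 4.10 FPKM. These later values are descriptions without a test.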

How the data were processed

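RNA was measured in 30 samples of mouse E14 cells (5 populations, 3 genotypes, 2 samples each) as rRNA-depleted stranded libraries. Per the methods and labels, the authors trimmed the reads, aligned them with HISAT2 2.1.0 to mm10, computed FPKM with StringTie 1.3.3, retained each gene that passed 1 FPKM somewhere, and applied quantile normalisation. The deposited FPKM values at any rank differed between samples by at most 0.192 FPKM, so differences are relative to the whole distribution, and the total reads per sample are unknown. The annotation behind the FPKM values is not given in the sources used here.

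Values were transformed as log2(FPKM + 0.1) and fitted with limma 3.58.1 (R 4.3.3) as 15 group means over all 30 samples with an intensity trend. Steps and their differences were contrasts, with Benjamini-Hochberg adjustment over 14525 genes and a threshold of 0.05. The scripts were tested on simulated data. Named were *Sp3* and *Sp1*, in each list its first 3 genes and the 3 called members above 3 FPKM with the largest change, the 12 largest rises, falls, and positive and negative step differences, and promoters of the 2 highest and 2 lowest. Some genes that this rule names are not reported here. Samples with the same replicate number in ESC and Flk1+ cells did not deviate together (r over 12016 genes 0.0628 in Sp3-/-, 0.0136 in WT and 0.123 in Sp1 ΔDBD/ΔDBD). The members and gene lists were chosen with earlier results of these data known. Positions are from GENCODE M21, to which 14559 symbols matched, 189 of them by an older symbol. Figures were drawn with matplotlib 3.10.9.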

Additional observations from a re-analysis of the deposited data

Results flagged for a closer look

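The 6 genes with the highest and the 6 with the lowest called differences between the Sp3-/- and the WT step, among genes above 3 FPKM, differed by the contrast of the steps itself (limma, adjusted over all genes). The log2 differences were 5.14 for *Sp5*, 4.93 for *Gm21293*, 4.25 for *Gm6763*, 4.0 for *Gm8764*, 3.97 for *Pim2* and 3.78 for *Dnah8* on the higher side. On the lower side they were -3.63 for *Rps6ka4*, -3.24 for *Nkx2-9*, -3.07 for *Pdlim4*, -3.00 for *Unc5c*, -2.81 for *Cfc1* and -2.50 for *Spink1*. Of these, *Sp5*, *Pim2*, *Rps6ka4* and *Unc5c* were called in every alternative, including those without any one sample.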

How the results depend on the processing

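The counts of the Sp3-/- step stayed within 1.5 times of those reported under every alternative, with 3018 to 3072 genes higher and 2635 to 2702 lower when any one of its 4 samples was left out. Of 2252 values of named genes in the step, 2154 kept their direction and side of the threshold, 57 lost and 39 gained a call, and 2 reversed under the replicate block with the GC content and length correction, *Hist1h1a* (0.37) and *Rpl3* (0.22). Of 700 counts over gene lists, 79 moved by more than 1.5 times. Without single Sp3-/- samples, the BMP genes that fell went from 4 to 1 or 2 (any sample), the ribosomal protein genes that rose from 5 to 1 or 2 (any), the histone genes that fell from 2 to 1 (any), and the proteasome genes that fell from 6 to 2 or 3 (any but the first Flk1+ sample). The formative genes that rose went from 3 to 1 without the first ESC or first Flk1+ sample, the p53 and cell cycle genes that rose from 4 to 2 without the second Flk1+ sample, and the glycolysis genes that fell from 4 to 2 without the first. *Bmp4*, *Fgf5*, *Sp2* and *Rps27* lost their call in the step without any one of the 4 samples, *Hist2h3c2* and *Gm21293* in 3 cases, and *Sp3*, *Acta2*, *Pdlim4* and *Immp2l* in 2, and *Cdkn2a* without the second Flk1+ sample (-1.47). The differences to the WT step were less stable. Their counts of higher and lower genes were 270 and 188 with a pseudocount of 1, 333 higher with ribosomal centring, 128 lower with the GC correction, and 29 to 115 and 13 to 63 without one sample. With the replicate block, a paired fit for numbers that did not pair the samples, they were 336 and 249, and 481 and 392 with the GC correction added. Against the Sp1 ΔDBD/ΔDBD step they were 88 and 79 with a pseudocount of 1, 4 and 12 with the ESC and Flk1+ samples alone, 44 and 40 without the trend, 13 lower above 3 FPKM, 32 lower with the GC correction, 63 and 51 with the replicate block, 92 and 74 with both, and 6 to 46 and 4 to 38 without one sample. Of 408 values of the 24 named step differences, 294 kept their call, 113 lost it and *Spink1* reversed with a pseudocount of 1 (0.0151). The causes were not tested. A fit to the 4 Sp3-/- samples alone gives no difference to WT. The unknown read depth sets no floor for low values.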
